A study of Mus musculus with 6 samples.

Results

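Integrins are the receptors through which osteoblasts hold on to bone matrix, and focal adhesion proteins are the plaque that ties the cytoplasmic tails of integrins to actin. Here 38 genes of this machinery, 20 integrin subunits and 18 plaque proteins, were followed in mouse osteoblasts with and without the retinoblastoma protein (pRb). They were taken from 18193 genes that the array's annotation names by a single symbol, each represented by its probe set (a group of short probes for 1 transcript) with the highest mean signal over all arrays. A probe set was found for 36 of the 38, and Itga11 and Ptk2 were not analysed here.

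An integrin is a pair of an α and a β subunit, and the pair decides which matrix protein is bound. Talin and kindlin bind the β tail and activate the receptor. Paxillin, vinculin, zyxin, α-actinin and the complex of integrin-linked kinase, PINCH and parvin then connect it to signalling and to actin filaments. In bone, αvβ3 and αvβ5 bind RGD-containing matrix proteins such as osteopontin and vitronectin, α5β1 binds fibronectin, and α1β1, α2β1, α10β1 and α11β1 bind collagen.

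The cells were MC3T3 osteoblasts, which here means primary calvarial cells of embryonic day 18.5 mice immortalized by passage every 3 days under the 3T3 protocol. The labels call the genotypes Wild type and Rb Knockout. They give 1 breeding scheme for all cultures, with flox19-RB1 mice kept on a C57BL/6 background and crossed with 2.3- and 3.6-Col1a1-Cre animals, in which a type I collagen promoter drives Cre in cells of the bone lineage, and F2 animals of a self-cross were used. Total RNA of 3 pRb-expressing and 3 pRb-deficient cultures was hybridized to 1 Affymetrix Mouse Genome 430 2.0 array each. The labels call the cultures biological replicates without saying whether they are separate lines, so the p-values measure the spread between these cultures, which may be technical. Whatever else separates the lines of the 2 genotypes cannot be told apart from pRb status. All values are MAS5 signals, a linear brightness that the authors scaled to the same trimmed mean of 500 on every array, and signals at or below 32 are treated as a floor. A positive log2 fold change means a higher signal without pRb. SE is its standard error, and p-values from limma were adjusted over all 38427 probe sets tested.

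The Rb1 transcript, which encodes pRb, fell from 1116 ± 9.17 to 131 ± 10.4 (mean ± SD, n = 3 per group, limma adjusted p = 4.94e-06). The position of its probe set relative to the floxed exon was not determined here, so this is no check of the deletion itself. Across probe sets, log2 signals of 2 arrays correlated at 0.974 to 0.985 within a group and at 0.912 to 0.917 between groups. The label osteoblast was set against 9 measured osteoblast markers, of which 8 were lower and 1 higher in pRb-deficient cultures. Their summed signal lay between 75822 and 84741 in pRb-expressing and between 39779 and 54269 in pRb-deficient cultures. Sp7 went from a mean of 1833 to 124 (at least 18.1-fold lower). Ibsp went from 2311 to 3.5 and Dmp1 from 496 to 6.13, both below the floor on every pRb-deficient array. Falls were smaller for Col1a1, Col1a2, Sparc, Postn and Alpl, at log2 fold changes of −1.40 to −0.36. Phex was the higher marker, at means of 28.0 and 128 (limma adjusted p = 0.00139). In a bulk culture, fewer cells of a type and less RNA per cell cannot be told apart. Of all genes tested, 18.5% were higher and 23.4% lower at an adjusted p under 0.05 from limma. Among genes with a mean signal of 200 or more, 59.0% passed in either direction. Beside these shares, markers of other cell types moved with the groups in part. Of 6 mesothelial markers, 2 were higher and 1 lower, with a summed signal of 395 to 453 with pRb and 2781 to 3441 without it. Msln went from a mean of 19.5 to 1551 (at least 47.1-fold) and Bnc1 from 17.8 to 1271 (at least 38.8-fold). Upk1b was lower, at means of 255 and 112 (limma adjusted p = 0.00202). Upk3b, at means of 57.8 and 18.6, and Lrrn4, at 43.1 and 29.7, did not pass. Wt1 had means of 27.1 and 24.9, under the floor. Of 6 smooth muscle markers tested, 2 were higher and 1 lower (summed signal 23249.7 to 25770.4 with pRb and 26852 to 31984 without). Cnn1 went from a mean of 12.1 to 2495 (at least 77.4-fold) and Tagln from 5028 to 9936. Myocd was lower, at means of 43.0 and 27.1 (limma adjusted p = 0.037). Acta2, the brightest, had means of 19601 and 16564 and did not pass (limma adjusted p = 0.081). Des, at means of 112 and 214, and Rgs5, at 124 and 97.0, did not pass either. Myh11 was at the floor on every array. Of 7 epithelial markers tested, 1 was higher and 1 lower (1178.5 to 1276.5 and 767 to 1142), and of 5 neural markers, 1 was higher and 3 were lower (2383 to 2588 and 578 to 657). Of 5 endothelial and 6 skeletal muscle markers tested, 0 passed in limma, and 0 had an unadjusted p under 0.05. The part of such cells in the values below was not tested.

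The regions just upstream of a few of these genes are shown first. Itgb7, Itgb8, Itga8 and Itga10 are shown because their transcripts changed most among genes with a matched promoter. Zyx and Vcl are among the genes that hold a motif searched for, and both were higher in pRb-deficient cultures. Regions of the other holders are not shown. Of these, Itga3 was higher, and Actn4, Ilk, Itga4, Fermt2 and Itgb6 did not pass. Itgb3, whose transcript fell most in the set, had no matched promoter. RefSeq promoters (GRCm38.p6) were matched for 27 of the 36 measured genes, with 33 start sites in all, and the 250 bases before each start were searched on both strands for the E2F sites TTTCCCGC and TTTGGCGC, the AP-1 site TGANTCA, the RUNX site TGTGGT and the CArG box of serum response factor. No 2 motifs overlapped in these regions. Capitals mark a match, and a region all in lower case holds none of the 4 motifs.

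Itgb7, chr15:102231936-102232185, minus strand: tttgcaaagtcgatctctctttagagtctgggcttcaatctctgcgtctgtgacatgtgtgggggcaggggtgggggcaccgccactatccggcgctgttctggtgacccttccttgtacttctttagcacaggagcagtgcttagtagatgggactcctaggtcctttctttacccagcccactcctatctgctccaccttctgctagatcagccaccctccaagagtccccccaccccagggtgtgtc
Itgb8, chr12:119238277-119238526, minus strand: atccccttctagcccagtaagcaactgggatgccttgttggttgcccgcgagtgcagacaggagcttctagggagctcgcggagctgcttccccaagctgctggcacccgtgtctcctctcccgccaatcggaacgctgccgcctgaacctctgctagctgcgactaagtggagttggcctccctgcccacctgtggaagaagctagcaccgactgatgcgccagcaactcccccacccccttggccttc
Itga8, chr2:12301945-12302194, minus strand: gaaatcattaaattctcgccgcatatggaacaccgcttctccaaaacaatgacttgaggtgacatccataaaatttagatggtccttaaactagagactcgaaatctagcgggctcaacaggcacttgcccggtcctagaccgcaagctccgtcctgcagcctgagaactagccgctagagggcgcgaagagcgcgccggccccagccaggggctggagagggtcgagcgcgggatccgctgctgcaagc
Itga10, chr3:96645334-96645583, plus strand: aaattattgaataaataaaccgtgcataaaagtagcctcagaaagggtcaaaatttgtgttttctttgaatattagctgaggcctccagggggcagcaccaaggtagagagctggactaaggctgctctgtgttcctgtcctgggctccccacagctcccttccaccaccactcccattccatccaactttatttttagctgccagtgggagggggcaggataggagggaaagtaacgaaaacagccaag
Zyx, chr6:42349578-42349827, plus strand: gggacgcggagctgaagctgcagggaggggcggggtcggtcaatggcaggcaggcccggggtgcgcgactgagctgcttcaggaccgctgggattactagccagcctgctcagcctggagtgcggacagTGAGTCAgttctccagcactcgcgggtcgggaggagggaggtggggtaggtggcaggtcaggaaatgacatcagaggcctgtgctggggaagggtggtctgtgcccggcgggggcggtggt
Vcl, chr14:20929148-20929397, plus strand: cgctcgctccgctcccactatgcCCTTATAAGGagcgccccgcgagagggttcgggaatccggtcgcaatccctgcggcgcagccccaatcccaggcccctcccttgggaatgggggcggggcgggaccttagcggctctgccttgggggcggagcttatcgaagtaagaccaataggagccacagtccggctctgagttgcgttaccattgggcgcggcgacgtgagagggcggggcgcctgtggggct

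Itgb7 and Itgb8 had the largest rises among the genes shown, and Itga8 and Itga10 the largest falls among them. Their 4 regions hold no match, with a GC content of 56.0%, 62.4%, 56.4% and 48.0% in that order, against a median of 52.4% over 32851 RefSeq promoters and 64.0% over the 33 of this set. The E2F site was in 0 of the 33 regions and in 1.3% of all promoters. AP-1 was found upstream of Zyx and Actn4 (2 of 33 regions, against 6.75% of all promoters), RUNX upstream of Ilk, Itga3 and Itga4 (4 of 33, against 14.0%), and the CArG box upstream of Vcl, Fermt2 and Itgb6 (3 of 33, against 1.47%). A match describes letters and is no measured binding, and a missing match says only that these letters are not in this window.

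Of the 36 measured genes, 15 were higher and 9 lower in pRb-deficient cultures at an adjusted p under 0.05 from limma, and 12 did not pass. These 24 of 36 (66.7%) stand against 41.9% of all 16308 genes tested, 18.5% higher and 23.4% lower. The set is bright, and among its 27 genes whose mean signal was 200 or more the 19 that passed compare with 59.0% of the 9677 genes at such a signal. A change of at least 2-fold was seen for 13 of the 36, against 15.6% of all genes, and the groups did not overlap for 25 of 36, against 53.8%. The median log2 fold change of the 36 was 0.13 and the median absolute change 0.65, against −0.09 and 0.39 over all genes. Changes were larger among the receptors, where 14 of 19 measured subunits passed with 10 of them at least 2-fold, than among the plaque proteins, where 10 of 17 passed and 3 changed at least 2-fold. That difference between the 2 classes was not tested.

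**Figure D1:**
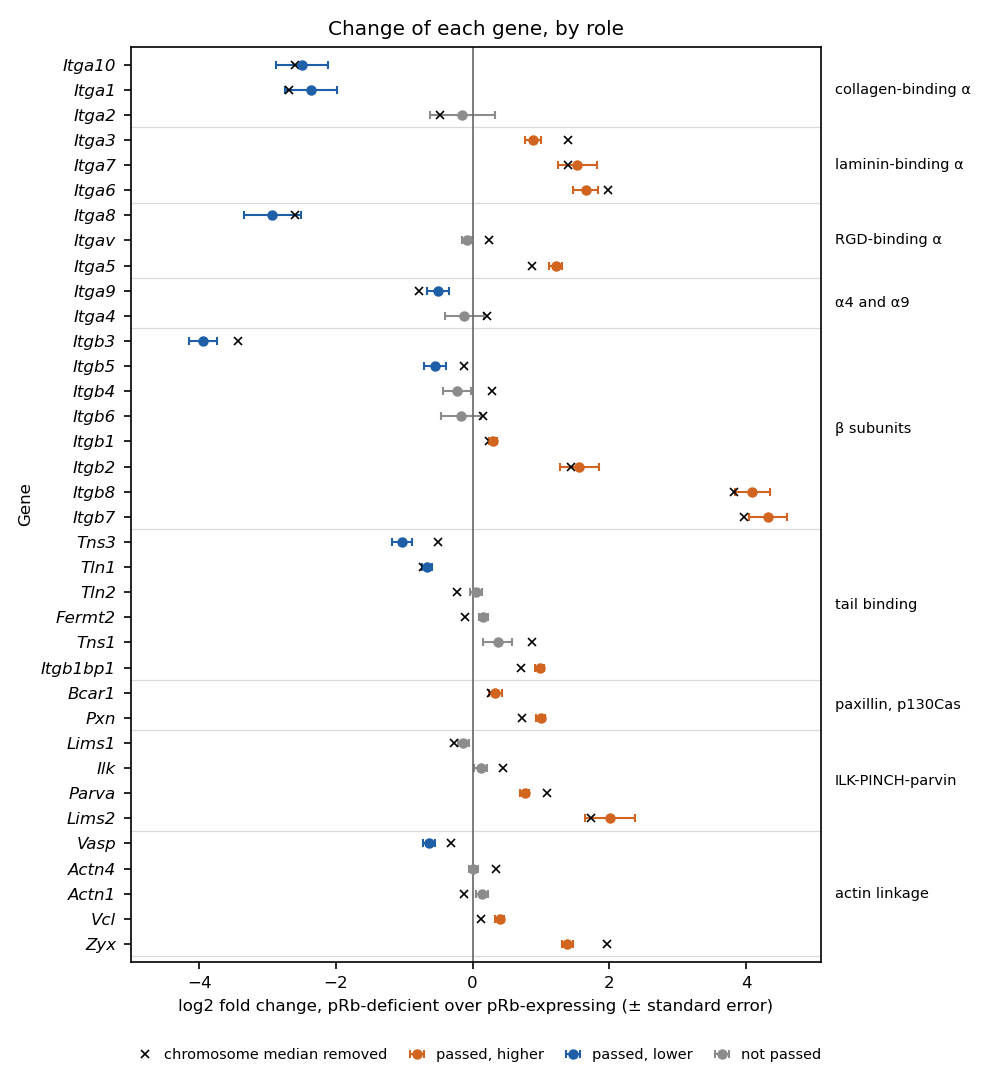
Log2 fold change of each of the 36 measured genes (x axis, pRb-deficient over pRb-expressing, with its standard error from limma on 3 arrays per group), grouped by role. Filled circles are coloured by direction and by whether they passed the threshold, and crosses give the value after the median of the gene's chromosome was taken off. All 3 laminin-binding α subunits lie above 0 and both called collagen-binding α subunits below it, with Itgb7 and Itgb3 at the extremes.

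The laminin-binding α subunits were all higher in pRb-deficient cultures, beside 18.5% of all genes tested. Itga6, which pairs with β1 or β4, had signals of 378, 345 and 332 in pRb-expressing and 835, 1185 and 1376 in pRb-deficient cultures (log2 fold change 1.66, SE 0.18, limma adjusted p = 0.00054). The groups did not overlap, and the first pRb-deficient culture lay closest to the pRb-expressing ones. A dimmer probe set of the same gene went from a mean of 95.6 to 515. Itga3, the receptor for laminins of basement membranes, had signals of 909, 1026 and 889 against 1508, 1735 and 1985, 1.84-fold higher (limma adjusted p = 0.00117). Again every pRb-deficient culture was above every pRb-expressing one. Itga7, best known from muscle, was dim at 63.5, 91.9 and 48.6 in pRb-expressing and 236, 162 and 178 in pRb-deficient cultures, 2.89-fold higher (limma adjusted p = 0.00582). Itgb4, which forms the hemidesmosomal receptor with α6, stayed near or below the floor at 8.40 to 51.6 on all 6 arrays, and did not pass the test.

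Of the 3 measured collagen-binding α subunits, 2 were lower in pRb-deficient cultures and 1 did not pass, beside 23.4% lower among all genes tested. Itga10, a collagen receptor subunit first known from cartilage, fell from 695, 678 and 1019 in pRb-expressing to 233, 141 and 81.6 in pRb-deficient cultures (log2 fold change −2.49, SE 0.38, limma adjusted p = 0.00218). The groups were far apart, although the 3 pRb-deficient cultures themselves spanned a wide range. Itga1 had signals of 255, 186 and 240.0 against 79.0, 33.2 and 12, at least 5.14-fold lower, since 1 pRb-deficient array was below the floor (limma adjusted p = 0.00286). Its other probe set was lower too, at means of 55.5 and 14.7. Itga2, the collagen receptor subunit of platelets and epithelia, was dim at 65.0, 95.4 and 77.8 against 100.3, 17.3 and 110.4, and these overlapping values did not pass the test. Chondrocyte markers are recorded beside this group because Itga10 is a cartilage receptor. Of 7 tested, 3 were lower (Sox9, Col2a1 and Col11a1) and 1 higher, beside 41.9% of all genes that passed. Acan was the higher marker, at means of 129 and 634 (limma adjusted p = 0.000852). The summed signal of the list was 4660 to 5212 in pRb-expressing and 2305 to 3112 in pRb-deficient cultures.

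Among the α subunits of RGD-binding receptors, 1 rose, 1 fell and 1 did not pass, beside 18.5% higher and 23.4% lower among all genes tested. Itga8, whose β1 pair binds nephronectin and osteopontin, had signals of 2309, 2311 and 2201 in pRb-expressing and 548, 321 and 151 in pRb-deficient cultures (log2 fold change −2.93, SE 0.42, limma adjusted p = 0.00168). The pRb-expressing cultures were close together, and the pRb-deficient ones lay far below them and far apart from each other. Its other probe set fell alongside, from a mean of 992 to 148. Leaving out the third pRb-deficient culture brought the log2 fold change to −2.44, and leaving out the first to −3.37. Itga5, the α subunit of the fibronectin receptor, went the other way, from 309, 314 and 329 to 703, 804 and 704 (log2 fold change 1.21, SE 0.10, limma adjusted p = 0.00013). Of its 3 other probe sets 2 passed in the same direction. Itgav, the α subunit shared by αvβ1, αvβ3, αvβ5, αvβ6 and αvβ8, was bright in both groups at 10237, 9326 and 9116 against 8997, 8863 and 9191 (log2 fold change −0.08, SE 0.07, limma adjusted p = 0.426). Median log2 fold changes differed between chromosomes, from −0.58 on chromosome 6 to 0.35 on chromosome 15. With the median of its own chromosome 2 taken off, the value of Itgav became 0.24 (limma adjusted p = 0.0373, with 0.112 to 0.892 over the other settings that give a p), so its direction depends on that scaling.

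The α4 and α9 subunits share ligands such as VCAM1 and osteopontin. Itga4 was dim at 84.0, 79.1 and 55.9 against 74.7, 46.9 and 82.6 and did not pass. Itga9 had signals of 218, 200 and 212 against 161, 156 and 129, which did not overlap, yet its adjusted p of 0.0498 from limma sat at the threshold and rose above it under 10 of 20 other settings. It was lost without any 1 of the pRb-expressing cultures and without the second or the third pRb-deficient one, at log2 fold changes of −0.57 to −0.41 over single arrays left out.

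The β subunits held the largest changes of the set in both directions. Itgb3, the partner of αv in the vitronectin receptor, had signals of 440.0, 613 and 444 in pRb-expressing and 8.40, 6.70 and 9.70 in pRb-deficient cultures, below the floor on all 3 and at least 15.4-fold lower (limma adjusted p = 2.16e-05). The groups were widely apart, and its second probe set was lower as well, at means of 82.4 and 10.1 (limma adjusted p = 0.0207). Itgb8, a partner of αv that binds latent TGF-β, went from 60.6, 40.1 and 67.9 to 1208, 864 and 782, 17.0-fold higher (log2 fold change 4.09, SE 0.26, limma adjusted p = 5.25e-05). Without pRb, Itgb8 was thus bright in all 3 cultures and Itgb3 was not above the floor in any, while their shared partner Itgav did not pass the test.

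Itgb7, known from lymphocytes, where it pairs with α4 or αE, rose from 31.0, 61.6 and 15.2 to 739, 769 and 887, at least 19.98-fold, since 2 pRb-expressing arrays were below the floor (limma adjusted p = 6.15e-05). A single probe set is annotated to it, so no second measurement bears on this rise. Neither of these partners passed. Itga4 is given above, and Itgae, which encodes αE, had mean signals of 74.5 and 60.3 (log2 fold change −0.28, limma adjusted p = 0.466). Itgb2, the β subunit of leukocyte integrins, was 2.96-fold higher but dim at 55.9, 32.8 and 54.7 against 179, 116 and 125 (limma adjusted p = 0.0054), and it no longer passed with a floor of 100. Of the 5 measured α subunits that leukocytes and platelets use, Itgax was higher at an adjusted p of 0.0488 from limma, with mean signals of 79.6 and 130.03, and Itgae, Itgal, Itgam and Itga2b did not pass. Of 6 hematopoietic markers tested, 1 (Cd68) was higher and 1 (Lyz2) lower, beside 41.9% of all genes that passed. Summed signals of the list were 2376 to 2606 in pRb-expressing and 901 to 1126 in pRb-deficient cultures. Cd3e, of T cells, was at the floor on every array, and Ptprc, the pan-leukocyte marker, had mean signals of 36.7 and 30.1, at or near the floor.

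The β subunits that osteoblasts share with most adherent cells changed by less than 2-fold. Itgb1, the common partner of most α subunits named here, was 8066, 8222 and 8155 against 9990, 10207 and 9880.0, which did not overlap (log2 fold change 0.30, SE 0.06, limma adjusted p = 0.00672). The brightest of its other probe sets moved by 0.29. Itgb5, another αv partner, had signals of 7234, 6984 and 7103 against 6129, 4823 and 3825 (log2 fold change −0.56, SE 0.16, limma adjusted p = 0.0332). All pRb-deficient values were lower, but the call was lost under 8 of 20 settings. These included leaving out the second pRb-deficient culture or any 1 of the pRb-expressing ones, and the removal of chromosome medians, which left a log2 fold change of −0.13. Leaving out single arrays gave log2 fold changes of −0.73 to −0.39. Of its 3 other probe sets 2 were lower past the threshold. Itgb6, the epithelial αv partner, stayed at 34.3 to 67.0 on all arrays and did not pass.

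**Figure D2:**
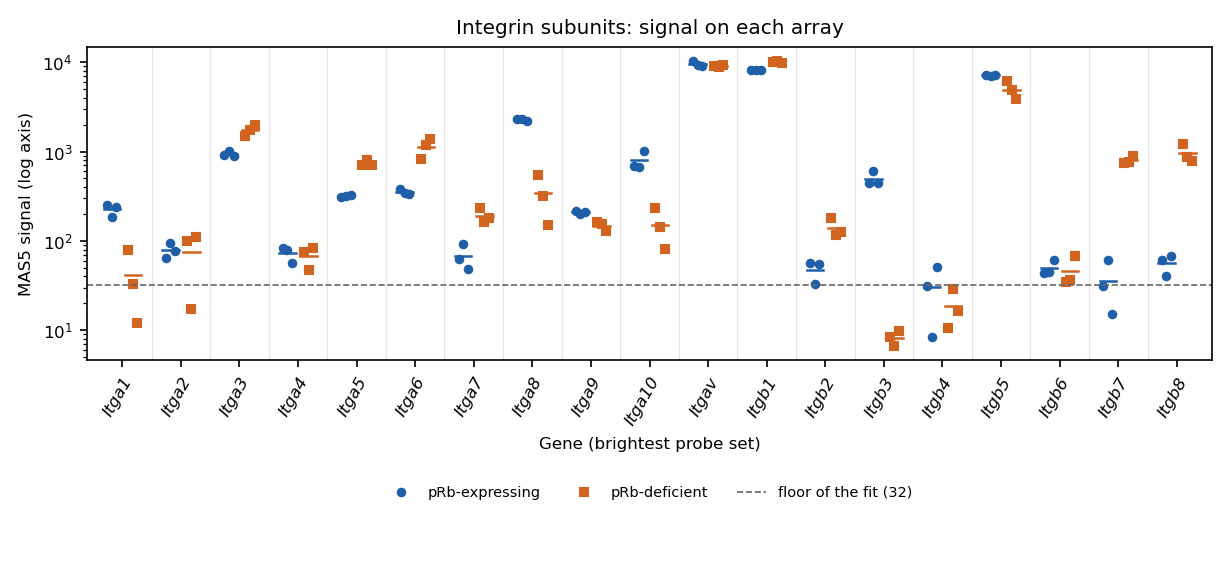
MAS5 signal (y axis, log scale) of the 19 measured integrin subunits on each of the 6 arrays, with pRb-expressing cultures as circles and pRb-deficient cultures as squares. Short lines are group means, and a dashed line marks the signal of 32 used as floor. Itgb3 falls from 440.0 or more to below the floor, Itgb7 and Itgb8 rise from near it to 739 or more, and Itgav and Itgb1 lie at similar heights in both groups.

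Proteins that bind the integrin tail were split. Tln1, talin 1, which opens the receptor by binding the β tail, had signals of 3851, 3913 and 3608 in pRb-expressing and 2558, 2335 and 2292 in pRb-deficient cultures (log2 fold change −0.66, SE 0.07, limma adjusted p = 0.00047). The groups did not overlap, but its 2 other probe sets were dim and did not pass, at log2 fold changes of 0.04 and −0.07. Tln2, talin 2, did not pass in its brightest probe set at 608, 582 and 543 against 634, 560 and 599, while a dimmer probe set rose from a mean of 87.5 to 203 (limma adjusted p = 0.00469). Fermt2, kindlin 2, which works with talin, had signals of 4277, 4209 and 4561 against 4710, 4805 and 5051. Every pRb-deficient value was above every pRb-expressing one, yet the log2 fold change of 0.16 (SE 0.06) had an adjusted p of 0.103 from limma, and it turned to −0.12 with the chromosome median removed.

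Tns3, tensin 3, which links β tails to actin, fell from 9863, 8819 and 8783 in pRb-expressing cultures to 3583, 4784 and 5254 (log2 fold change −1.03, SE 0.14, limma adjusted p = 0.00157). Its other probe set fell to a like extent, with a log2 fold change of −1.05. Taking off the median of chromosome 11 left −0.51 for the brightest probe set (limma adjusted p = 0.0352). Tns1, tensin 1, did not pass, with signals of 449, 457 and 504 against 794, 632 and 439. The third pRb-deficient culture lay below all pRb-expressing ones. With the median of its chromosome removed, Tns1 passed at 0.87 (limma adjusted p = 0.0185). Itgb1bp1, ICAP-1, which competes with talin for the β1 tail, had signals of 897, 921 and 879 against 1672, 1839 and 1810, 1.97-fold higher (limma adjusted p = 7.91e-05).

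Both measured genes of the signalling group were higher, beside 18.5% of all genes tested. Pxn, paxillin, the adaptor that recruits focal adhesion kinase, had signals of 1212, 1176 and 1135 in pRb-expressing and 2236, 2320 and 2465 in pRb-deficient cultures (log2 fold change 0.99, SE 0.07, limma adjusted p = 6.96e-05). Its 2 other probe sets passed in the same direction at 0.68 and 0.73. Bcar1, p130Cas, the docking protein phosphorylated on stretch, had signals of 1539, 1331 and 1337 against 1594, 1845 and 1861, and its adjusted p of 0.0321 from limma rose above 0.05 under 9 of 20 settings. The first pRb-deficient culture lay only just above the highest pRb-expressing one. The call was lost without the second or the third culture of either group, at log2 fold changes of 0.29 to 0.41 over single arrays left out.

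In the complex of integrin-linked kinase, PINCH and parvin, 2 of 4 genes passed, both higher. Beside this, 41.9% of all genes and 59.0% of those with a mean signal of 200 or more passed. Ilk, the kinase-like scaffold at its centre, was 3117, 3243 and 3044 against 2929.7, 3657 and 3663, overlapping values with a log2 fold change of 0.12 (SE 0.10, limma adjusted p = 0.427). With the median of its chromosome removed, Ilk passed at 0.45 (limma adjusted p = 0.0142). Lims1, PINCH-1, did not pass (log2 fold change −0.14), and none of its 4 other probe sets did. Its brightest probe set passed at −0.27 with the chromosome median removed (limma adjusted p = 0.0413). Lims2, PINCH-2, was at or just above the floor in pRb-expressing cultures, with 34.4, 26.6 and 31.9, and at 174, 182 and 73.0 in pRb-deficient ones, at least 4.03-fold higher (limma adjusted p = 0.00468). Raising the floor to 100 ended this call (limma adjusted p = 0.0877, with 0.000183 to 0.0227 over the other settings that give a p). Parva, α-parvin, rose from 1915, 2016 and 1916 to 3153, 3428 and 3343 (log2 fold change 0.76, SE 0.06, limma adjusted p = 0.00015). Its other probe set, at means of 1379 and 1416, did not pass (log2 fold change 0.04, limma adjusted p = 0.792), so the 2 measurements of this gene disagree.

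Among the proteins that reach the actin filament, Zyx changed most. Zyx, zyxin, a LIM protein of mature adhesions and stress fibres, had signals of 3040, 2655 and 2703 in pRb-expressing and 7503, 7078 and 7363 in pRb-deficient cultures (log2 fold change 1.39, SE 0.07, limma adjusted p = 2.63e-05). The groups were tight and far apart, but its second probe set, at means of 643 and 434, passed in the opposite direction with a log2 fold change of −0.56 (limma adjusted p = 0.0144). Zyx was the only gene of the set in which 2 probe sets passed in opposite directions. The region upstream of Zyx, shown above, holds an AP-1 match. Vasp, which zyxin recruits to speed actin growth, fell from 2246, 2599 and 2413 to 1411, 1611 and 1625 (log2 fold change −0.64, SE 0.09, limma adjusted p = 0.00138), without overlap between the groups.

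Vcl, vinculin, which couples talin to actin under load, had signals of 10771, 10436 and 10391 against 13173, 13953 and 14497 (log2 fold change 0.40, SE 0.07, limma adjusted p = 0.00375), and its second probe set moved by 0.53. The groups did not overlap, but with the median of its chromosome removed the value was 0.12 (limma adjusted p = 0.212, with 0.000269 to 0.0217 over the other settings that give a p). Its upstream region, shown above, holds a CArG box. Actn1 and Actn4, the non-muscle α-actinins that crosslink actin, did not pass at 0.14 and 0.01, although a dimmer probe set of Actn1 passed at 0.35 (limma adjusted p = 0.0287). With the median of its chromosome removed, Actn4 passed at 0.34 (limma adjusted p = 0.00733).

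**Figure D3:**
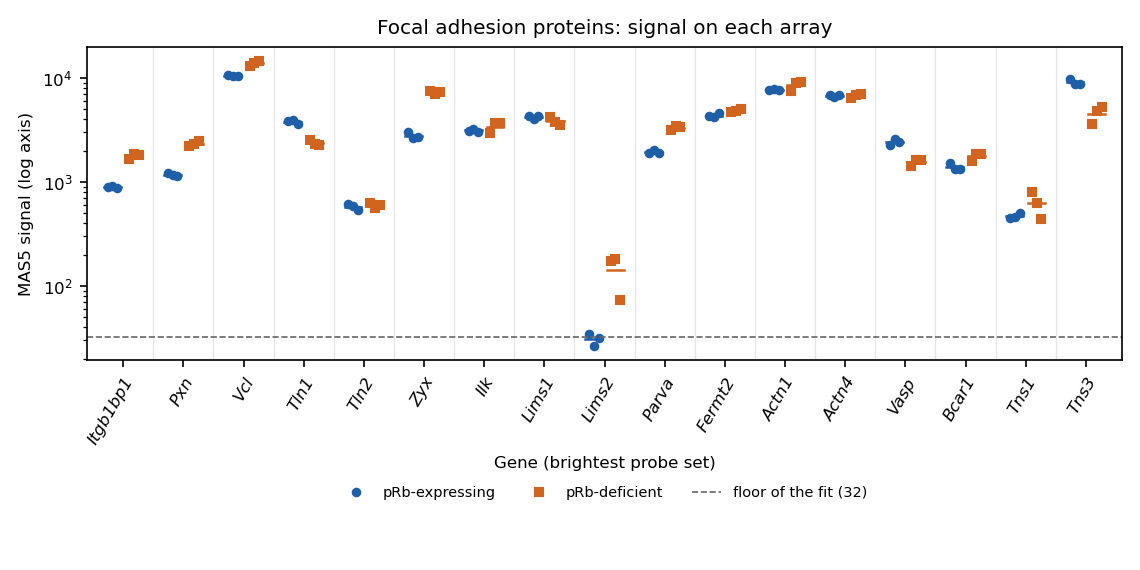
MAS5 signal (y axis, log scale) of the 17 measured focal adhesion proteins on each of the 6 arrays, with pRb-expressing cultures as circles and pRb-deficient cultures as squares. Short lines are group means, and a dashed line marks the signal of 32 used as floor. Zyx, Pxn, Parva and Itgb1bp1 are higher without pRb with no overlap, Tns3, Tln1 and Vasp are lower, and Lims2 is the only gene near the floor.

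The same gene could be read from several probe sets in 24 cases, with 85 probe sets in all and 80 tested. Of the 16 called genes with another tested probe set, 11 had one that passed in the same direction, 1 had one that passed in the opposite direction, and for 4 no other passed, while 35% of all 38427 probe sets passed. The 11 were Itga1, Itga3, Itga5, Itga6, Itga8, Itgb1, Itgb3, Itgb5, Pxn, Vcl and Tns3, the 1 was Zyx and the 4 were Itga9, Tln1, Parva and Bcar1. The other called genes, among them Itgb7, Itgb8, Itga10 and Vasp, rest on a single probe set each.

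**Figure D4:**
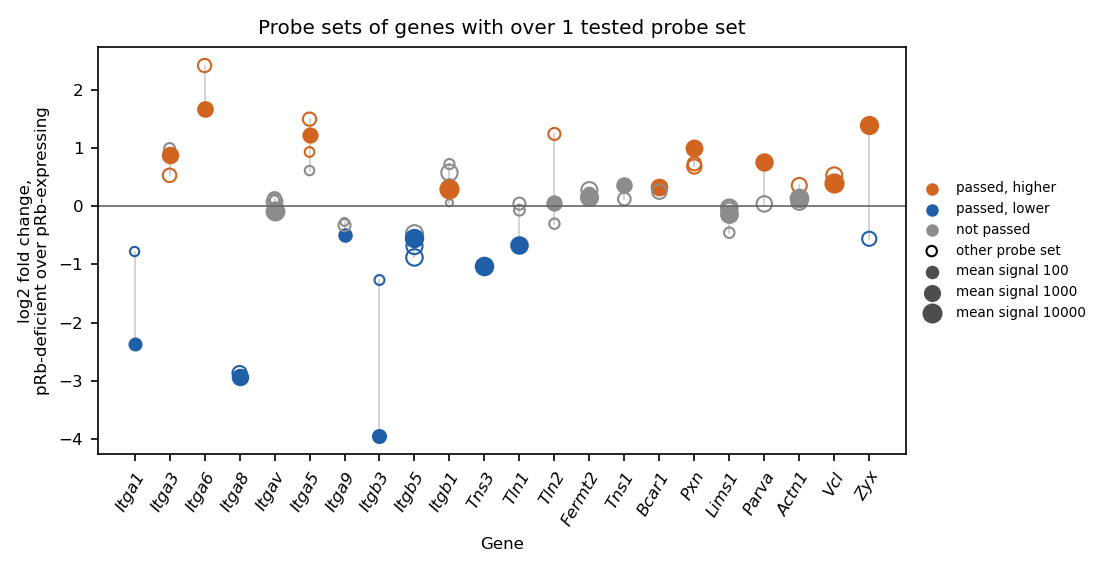
Log2 fold change (y axis, pRb-deficient over pRb-expressing) of every tested probe set of the genes that have more than 1, with circle area growing with the mean signal. Filled circles are the brightest probe set of a gene, open circles its others, and colour gives direction and whether the threshold was passed. Zyx is split across 0, Parva and Tln2 have a probe set near 0, and those of Itga8, Pxn and Tns3 lie on the same side.

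The pRb-deficient cultures varied more among themselves than the pRb-expressing ones. The median SD of log2 signals over the 27 bright genes was 0.06 with pRb and 0.11 without it, and it was larger without pRb for 21 of 27 (77.8%). The same held over all genes of such a signal, at 0.09 and 0.15 and in 69.3% of them. Of the 22 called genes whose pRb-deficient signals were all above the floor, 14 had the first pRb-deficient culture closest to the pRb-expressing mean, 3 the second and 5 the third. That count was not made over all genes, so it is not known to be particular to this set.

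Of 33 matrix ligands of these receptors tested, 15 were lower, 9 higher and 9 did not pass, beside 23.4% lower and 18.5% higher among all genes, with a median log2 fold change of −0.10 against −0.09 over all genes. Of genes with a mean signal of 200 or more, 59.0% passed in either direction. By the lowest adjusted p, the named ligands are Npnt (log2 fold change −3.56), the partner of α8β1, Ibsp (at least 71.1-fold lower), Ltbp1 and Tgfbi. Tgfbi rose from a mean of 87.1 to 2132 (log2 fold change 4.58, limma adjusted p = 1.57e-05). Ltbp1, which holds latent TGF-β in the matrix, went from 2969 to 7942 (log2 fold change 1.42, limma adjusted p = 1.46e-05). Fn1, fibronectin, the ligand of α5β1, was bright in both groups at means of 19911 and 18513 and did not pass (limma adjusted p = 0.419).

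Of 31 kinases and adaptors of integrin signalling, 11 were higher, 8 lower and 12 did not pass (41.9% of all genes and 59.0% of those with a mean signal of 200 or more passed), with a median log2 fold change of 0.01. Arhgef6, α-PIX, an exchange factor for Rac1 and Cdc42 that binds β-parvin, had the lowest adjusted p, falling from a mean of 2478 ± 291 (SD, n = 3) to 198 ± 31.6 (SD, n = 3; log2 fold change −3.66, SE 0.15, limma adjusted p = 9.95e-06). Rock1, a kinase that drives actomyosin contraction, rose from 1374 to 2355, Ptpn11, the phosphatase SHP2, from 2718 to 4798, and Git2, a partner of PIX proteins, from 1184 to 1848. Of these 4 genes, Arhgef6 alone changed more than 2-fold.

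Of 39 other scaffold proteins of adhesions, 16 were higher, 10 lower and 13 did not pass, beside the same 41.9% and 59.0% of genes that passed, with a median log2 fold change of 0.19. The 4 with the lowest adjusted p were Sorbs2, which binds vinculin and fell from a mean of 9455 to 2748, and 3 LIM proteins that rose. Fhl1 went from 249 to 3269 (log2 fold change 3.72), Tes, a partner of zyxin, from 283 to 2157 (2.92) and Pdlim1, which binds α-actinin, from 2131 to 7630.3 (1.84). Adjusted p-values of these 4 lay between 4.75e-06 and 1.15e-05 from limma. Of 20 regulators and trafficking proteins, 7 were higher, 4 lower and 9 did not pass, again beside 41.9% and 59.0%, with a median log2 fold change of 0.14. Cd81, a tetraspanin, fell from 9949 to 4769, whereas Cd151, the tetraspanin that associates with laminin-binding integrins, rose from 1927 to 3201. Nisch, a binding partner of α5, rose from 5607 to 9502 and Rab11a, which recycles integrins to the surface, from 2948 to 4918.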

How the data were processed

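Biotin-labeled RNA of 3 pRb-expressing and 3 pRb-deficient MC3T3 cultures was hybridized by the authors, whose methods name scaling to a trimmed mean of 500. Affymetrix Expression Console 1.1 and MAS5 are the tools in the submitters' processing notes. The deposited intensities are MAS5 signals on a linear scale, as computed by the authors, without detection calls, and the trimmed mean of each array, checked on the values, was 499.85 or 499.86. The number of arrays limits the precision.

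The table has 45101 probe sets. Its 64 controls were removed, and 6610 others at or below 32 on all arrays were not tested. After values under 32 were set to 32, log2 signals of the 2 groups were compared in limma 3.58.1 under R 4.3.3, by lmFit and eBayes with trend, a model without covariates that leaves 4 residual degrees of freedom. Two-sided p-values of 38427 probe sets received a Benjamini-Hochberg adjustment. A gene stands for its brightest probe set, and 16308 of 18193 genes were tested. Where an array of the lower group was at or below 32, folds are lower bounds. Of the probe sets, 34945 carry 1 symbol, 932 carry several and 9160 have no symbol. RefSeq (GRCm38.p6) gave promoters and chromosomes, since no build is named for the array. The fit was tested on simulated data.

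All members are named. Values by culture are given for those past the 0.05 threshold with at least a 2-fold change and a mean of at least 200 in the higher group. They are also given for Itgav, Itga5, Itgb1, Itgb3, Itgb5, Tln1, Fermt2, Ilk, Pxn and Vcl whatever their change, and for some members outside this rule. Up to 4 genes per pathway list are named by lowest adjusted p with a mean of at least 200 in the higher group, and other list genes were named after their values were seen. The members and lists were chosen with earlier results of these data known. Arrays with the same replicate number were not treated as pairs in the main fit, because the methods name no pairing. After removal of group means they correlated at 0.02, −0.03 and 0.06. Arrays with different numbers were not set beside these values, which therefore cannot decide whether a batch was shared.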

Additional observations from a re-analysis of the deposited data

How the results depend on the processing

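Over 20 alternatives (array quality weights, quantile normalization, a floor of 100 or none, median centring, a mean of at least 100, no filter, a pseudocount of 32, no intensity trend, the mean of all probe sets, no probe sets ending in _s_at or _x_at, chromosome medians removed, a replicate block, complete separation of the groups and leaving out each array), the number of genes of the set higher in pRb-deficient cultures lay between 13 and 19 and the number lower between 7 and 10. Of the 24 called genes, 16 stayed past the threshold in every alternative and 8 were lost in at least 1: Itga9, Itgb2, Itgb5, Vcl, Tln1, Lims2, Parva and Bcar1. With the replicate block, 14 were higher and 8 lower, and Itga9 and Bcar1 were lost. Leaving out each array in turn gave 14 to 17 higher and 7 to 9 lower. Some genes that had not passed gained a call. With chromosome medians removed these were Itgav, Ilk, Actn4 and Tns1, all higher, and Lims1, lower. Gains under the other alternatives are not listed here. The cause of these losses and gains was not tested.

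Direction turned only for genes that had not passed. With chromosome medians removed, the log2 fold change was 0.21 for Itga4, 0.24 for Itgav, 0.29 for Itgb4, 0.16 for Itgb6, −0.23 for Tln2, −0.12 for Fermt2 and −0.13 for Actn1. Itgav was 0.041 as the mean of its probe sets, Itga2 0.049 with a floor of 100, Tln2 −0.035 with array quality weights and Actn4 −0.037 with quantile normalization. Leaving out each array gave −0.47 to 0.42 for Itga2, −0.30 to 0.13 for Itga4, −0.48 to 0.0066 for Itgb6 and −0.015 to 0.047 for Actn4. Differences between signals under the floor are not measured here, which bears on Itgb4, with 5 of 6 arrays there.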
